A study of Mus musculus with 15 samples.

Results

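The liver carboxylesterases of the mouse are a family of esterases of the endoplasmic reticulum and the blood plasma, and 10 of their genes were followed here: Ces1c, Ces1d, Ces1e, Ces1f, Ces1g, Ces2a, Ces2c, Ces2e, Ces3a and Ces3b. They are 10 of the 19 carboxylesterase genes in the gene table used for names. The members were chosen on measured values of these samples, as liver genes of chromosome 8 in a stretch reported as low in 3 of the tumours. Their levels in tumours are therefore given as a description, without a test. Of the 10 genes, 9 had a listed probe set, and Ces2c was not analysed here. Ces1d had 3 probe sets, and Ces3a and Ces3b shared 1 probe set and cannot be told apart. By its identifier, the probe set of Ces1f is also of the kind whose probes can match several related transcripts, so its signal may hold that of close relatives. Among the 9545 genes tested in the whole series, 7 were members with a probe set of their own. All 7, and the shared probe set, were above the signal minimum in every array, so that none of them depended on 1 group to be measured.

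The samples were liver RNA of mice aged 16 months, in 3 groups. The first was 6 tumours of mice homozygous for a knockout of Mdr2, and the second 6 non-tumorous liver tissues of such mice. The third was 3 livers of heterozygous mice, which carry 1 knockout allele too and served as controls. The current symbol of Mdr2 is Abcb4, which carries phosphatidylcholine out of the hepatocyte into the bile. Mice 3 and 4 each gave a liver and a tumour of that number, and mice 5 and 6 gave a liver and a pair of tumours each, numbered 5-1 and 5-2 and 6-1 and 6-2.

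Carboxylesterases cleave ester and amide bonds. In hepatocytes they hydrolyse drugs and other foreign esters, and several of them also hydrolyse neutral lipids and so take part in the turnover of stored triacylglycerol and the assembly of lipoproteins. In the mouse, Ces1c is the secreted plasma esterase, Ces1d is known as triacylglycerol hydrolase, and Ces1e is egasyn, which holds beta-glucuronidase in the endoplasmic reticulum. Ces1f and Ces1g are lipid hydrolases of the liver, and Ces2a and Ces2e belong to the branch that acts on acylglycerols and on drugs with a bulky alcohol group. The Ces3 branch is expressed mainly in liver.

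The genes lie in 2 clusters of the same chromosome, in coordinates of assembly GRCm38.p6. The Ces1 cluster, at chr8:93020214-93535879, holds 9 genes in 515.7 kb, with Ces1c at 93099015 to 93131283, Ces1d at 93166072 to 93197804, Ces1e at 93201218 to 93229631, Ces1f at 93256236 to 93279766 and Ces1g at 93302369 to 93337209. The second cluster, at chr8:104734003-105150109, holds 10 genes in 416.1 kb, with Ces2a at 104734003 to 104741634, Ces2c at 104847068 to 104854483, Ces2e at 104926260 to 104934672, Ces3a at 105048576 to 105061928 and Ces3b at 105083733 to 105093929. The second cluster also holds Ces2g and Ces4a, and no tested gene other than carboxylesterases lay inside either cluster.

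The gene starts of 4 members are given because they stand for the range of the results: Ces1e, Ces2a and the shared Ces3a and Ces3b probe set had lower signals in every knockout liver, whereas Ces1g did not. Each sequence is the RefSeq strand of the gene, from 250 bases before to 50 bases from the transcript start used in the promoter table, in lower case. For Ces1e and Ces3b that start lies a little inside the outer end of the gene given above, and positions count from the promoter table's start. Capitals mark a match on either strand to AGGTCA, the half-site of nuclear receptors, GTTAAT, the half-site of HNF1, or TATAAA, the TATA box.
Ces1e, chr8:93229570-93229869, minus strand: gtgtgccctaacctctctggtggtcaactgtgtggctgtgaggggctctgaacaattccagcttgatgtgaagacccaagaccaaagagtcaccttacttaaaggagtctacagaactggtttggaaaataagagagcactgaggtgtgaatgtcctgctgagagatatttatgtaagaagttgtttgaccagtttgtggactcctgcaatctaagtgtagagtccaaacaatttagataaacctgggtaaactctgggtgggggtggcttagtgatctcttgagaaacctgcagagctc
Ces1g, chr8:93337160-93337459, minus strand: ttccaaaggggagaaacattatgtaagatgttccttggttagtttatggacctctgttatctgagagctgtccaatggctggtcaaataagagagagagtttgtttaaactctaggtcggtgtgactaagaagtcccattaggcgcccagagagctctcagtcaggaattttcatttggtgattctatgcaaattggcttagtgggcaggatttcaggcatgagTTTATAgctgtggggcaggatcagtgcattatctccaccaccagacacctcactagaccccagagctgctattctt
Ces2a, chr8:104733753-104734052, plus strand: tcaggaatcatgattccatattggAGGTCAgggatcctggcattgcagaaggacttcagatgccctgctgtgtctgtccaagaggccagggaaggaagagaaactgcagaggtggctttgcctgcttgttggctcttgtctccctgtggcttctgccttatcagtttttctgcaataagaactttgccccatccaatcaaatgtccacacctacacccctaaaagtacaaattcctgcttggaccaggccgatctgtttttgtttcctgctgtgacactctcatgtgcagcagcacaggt
Ces3b, chr8:105083505-105083804, plus strand: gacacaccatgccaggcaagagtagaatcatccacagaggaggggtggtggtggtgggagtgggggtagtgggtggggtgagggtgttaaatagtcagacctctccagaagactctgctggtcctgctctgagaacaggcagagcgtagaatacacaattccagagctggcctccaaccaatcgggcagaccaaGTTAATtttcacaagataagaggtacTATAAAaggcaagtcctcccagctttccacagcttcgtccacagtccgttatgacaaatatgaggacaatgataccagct
Ces2a held AGGTCA at position -226, Ces3b held GTTAAT at -56 and TATAAA at -30, and Ces1g held TATAAA on the other strand at -26. Ces1e held none of the 3 words in this window. Among the 7 members with a sequence in the table, AGGTCA was present in 1, GTTAAT in 1 and TATAAA in 2, against 16.3%, 7.10% and 13.6% of 32851 mouse promoters of the same length. The 3 words do not overlap each other in these sequences, and a match is a description of letters, not of a bound site. Between pairs of member promoters, identity over the aligned columns was highest for Ces2a and Ces2c at 66.9% and lowest for Ces1e and Ces3b at 45.8%. Pairs within a cluster did not always have the higher identity: Ces1c and Ces1e shared 47.1%, while Ces1e and Ces2e, from different clusters, shared 53.2%. Unrelated promoters were not aligned, so how far these values exceed those of unrelated sequences is not known.

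The values are signals of intensity per probe set, on a linear scale, and the median signal of an array lay between 35.8 and 51.2. The number of arrays limits the precision. Abcb4, the targeted gene, had signals of 122.5 to 681 in the tumours and 177 to 306 in the knockout livers, against 779 to 1006 in the heterozygous livers. The group labelled homozygous was below the heterozygous group in every array, with tumour 4, at 681, the closest. Whether its probe set lies in the deleted part is not given in the sources used here. All 9 measured hepatocyte markers were above the dim range in some array, and their summed signal was 72060 to 91740 in tumours, 85340 to 107600 in knockout livers and 112200 to 122600 in heterozygous livers. In bulk samples, fewer cells of a type and less RNA per cell cannot be told apart.

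The first comparison asked how the carboxylesterases stood in non-tumorous liver without both Mdr2 alleles. The rule that chose the members names low values in tumours, not this comparison. The members and tests were still chosen with earlier results of these data known. The counts below may therefore not be independent of that choice. Ces1e was lower in knockout livers, and Ces1c, Ces1f, Ces2a and the shared Ces3a and Ces3b probe set lay below the heterozygous livers in every sample. Ces1g and Ces2e were not lower. Of the 7 genes tested, 5 had a lower mean and their median log2 change was -0.62, against -0.02 over all genes.

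Ces1e had a lowest signal of 389, a median of 545 and a highest of 687.5 in the 6 knockout livers. In heterozygous livers 1, 2 and 3 its signals were 2773, 2156 and 1991. Where 3 heterozygous signals are listed for other genes, they follow the same order of livers. The groups were far apart, and the knockout liver with the most Ces1e held less than the heterozygous liver with the least. Means were 538 ± 129 (SD, n = 6) and 2307 ± 412 (SD, n = 3), which made Ces1e 4.30-fold lower, with a log2 change of -2.10 ± 0.52 (SE) and an adjusted p of 0.0481 in limma with all 15 arrays. It was the only 1 of the 7 carboxylesterases called in this fit, and 0 were called higher. Over all genes tested, 0.314% were called lower and 1.36% higher. The call lies close to the threshold and was lost without knockout liver 1, 2, 3, 4 or 6 and without any heterozygous liver, with adjusted p-values of 0.0668 to 0.188 in limma, while the log2 change stayed between -2.20 and -1.96.

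Ces1c had a lowest signal of 5948, a median of 6269 and a highest of 8372 in the knockout livers, against 11420.4, 11106 and 11056.5 in the heterozygous livers. Ces1f had signals of 1355, 1809 and 2325 (lowest, median and highest) in the knockout livers, against 3396, 3188 and 3507 in the heterozygous livers. In both genes the heterozygous livers sat in a narrow band above all knockout livers. The log2 changes were -0.74 ± 0.48 (SE) for Ces1c and -0.91 ± 0.65 (SE) for Ces1f, with adjusted p-values of 0.494 and 0.539 in limma with all arrays. Ces2a had signals of 1953, 2591 and 2819 (lowest, median and highest) in the knockout livers, against 3893, 3972 and 3478.5 in the heterozygous livers, again without overlap, at a log2 change of -0.62 ± 0.40 (SE; adjusted p = 0.488). The shared probe set of Ces3a and Ces3b showed the same arrangement. Its signals were 3596, 3808 and 4870.1 (lowest, median and highest) in the knockout livers, against 5240.4, 6044 and 5528 in the heterozygous livers, with a log2 change of -0.50 ± 0.35 (SE; adjusted p = 0.533, limma over all probe sets). In all, 4 of the 7 genes did not overlap between the groups and were lower in knockout livers, whereas 6.79% of all genes did so, and 0 of the 7 did so in the other direction, against 8.0% of all genes.

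The fit with all 15 arrays takes its spread from the tumours too, and most of these genes varied more among tumours. The SD of the log2 values of Ces1f, for example, was 1.67 among tumours, 0.33 among knockout livers and 0.07 among heterozygous livers. Fitted with knockout and heterozygous livers alone, the same log2 changes had standard errors of 0.13 for Ces1c, 0.18 for Ces1e, 0.16 for Ces1f and 0.13 for Ces2a. All 4 were then called lower, with adjusted p-values of 0.00129 for Ces1c, 2.69e-06 for Ces1e, 0.0017 for Ces1f and 0.00504 for Ces2a. That is 4 of 7 carboxylesterases, against 3.66% of all genes called lower and 6.75% called higher in the same fit. The shared probe set of Ces3a and Ces3b was called as well, with an adjusted p of 0.0135. The same 4 genes were called when any 1 of the 9 arrays was left out. The shared probe set missed the threshold without heterozygous liver 2 or 3, with adjusted p-values of 0.0788 and 0.0552.

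**Figure D1:**
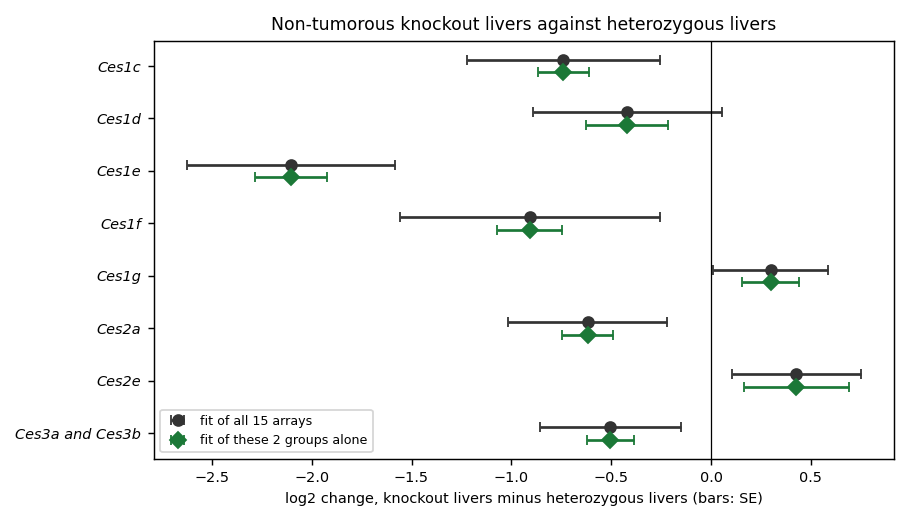
Log2 change of each carboxylesterase in non-tumorous knockout livers over heterozygous livers (x axis; points are estimates, bars are standard errors), with the genes down the y axis, from the fit of all 15 arrays and from the fit of these groups alone. Ces1e lies furthest to the left at -2.10, Ces1g and Ces2e lie right of 0, and the bars are shorter in the fit of the groups alone.

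RNA quality and cell markers also differed between these groups. The ratio of 3' to 5' actin signal, which grows as RNA breaks down, was 1.74 to 2.74 in knockout livers, against 2.55 to 3.37 in heterozygous livers. With that ratio as a covariate in limma with all arrays, the log2 change of Ces1e was -1.23 (adjusted p = 0.519). That of Ces1c was -0.12, and those of Ces1f and Ces2a turned to 0.43 and 0.06. In the fit of the groups alone, the covariate left 2 of the 4 calls, Ces1e at -1.93 (adjusted p = 5.36e-04) and Ces1f. The summed signal of 9 hepatocyte markers was lower in every knockout liver, at 85340 to 107600, against 112200 to 122600. A sum follows its brightest genes, and not every listed marker differed much. Apob averaged 4809 in knockout livers and 4752 in heterozygous livers, and Hnf4a 1657 and 1775. The sum also holds Serpina1c, which correlated with Ces1c at 0.95 over the 15 samples. Over 6 macrophage markers the summed signal was 2322 to 4151, against 1811 to 1867. Over 6 stellate cell markers it was 1269 to 3015, against 685.6 to 1015. Only knockout liver 6, at 2.74, had an actin ratio within the range of the heterozygous livers. The ratio thus largely follows the groups, and fits with it cannot separate RNA quality from the difference between the groups. The part of RNA quality and of cell markers in the carboxylesterase results was not tested.

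Ces1d, the triacylglycerol hydrolase, gave a mixed picture by probe set. With the brightest of its 3 probe sets, signals were 1085, 1538 and 2395 (lowest, median and highest) in the knockout livers, against 1974.5, 2475 and 2081 in the heterozygous livers, and the groups overlapped. The log2 change was -0.42 ± 0.47 (SE; adjusted p = 0.718). The second probe set averaged 930 ± 254 in knockout livers (SD, n = 6) and 1594 ± 362 in heterozygous livers (SD, n = 3), at a log2 change of -0.78 ± 0.44 (SE) that did not pass the test. The dimmest averaged 152 ± 39.9 in knockout livers and 286 ± 43.2 in heterozygous livers (SD, n = 6 and 3) without overlap. Its log2 change was -0.90 ± 0.33 (SE; adjusted p = 0.183, limma over all probe sets). By its identifier, the dimmest is of the kind whose probes can match other sequences, so its signal may hold that of other transcripts.

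Ces1g and Ces2e, both lipid hydrolases in the mouse, did not share the arrangement of the others. Ces1g averaged 1236 ± 223 in knockout livers (SD, n = 6) and 990.1 ± 28.0 in heterozygous livers (SD, n = 3), a log2 change of 0.30 ± 0.29 (SE; adjusted p = 0.663). Ces2e averaged 429 ± 161 in knockout livers and 306 ± 83.5 in heterozygous livers (SD, n = 6 and 3), a log2 change of 0.43 ± 0.32 (SE; adjusted p = 0.564), and both pairs of groups overlapped. Among carboxylesterases that are not members, Ces2g lay higher in every knockout liver, with 184 ± 20.2 in knockout livers and 114 ± 13.6 in heterozygous livers (SD, n = 6 and 3). Its log2 change of 0.64 ± 0.29 (SE) was not called with all arrays (adjusted p = 0.292) and was called with the groups alone (adjusted p = 0.0104). Ces4a was near the signal minimum in knockout livers, at 24.8 ± 7.32, against 49.0 ± 12.5 in heterozygous livers.

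In tumours the mean log2 value of each measured member was below that of the knockout livers, and the members differed widely from tumour to tumour. These values chose the members and are described without a test. The mean log2 difference of tumours to knockout livers was -1.84 for Ces1e, -1.36 for Ces1f, -1.26 for Ces1c and -1.03 for the shared Ces3a and Ces3b probe set. It was -0.49 for Ces1g, -0.42 for Ces1d, -0.33 for Ces2e and -0.28 for Ces2a. The median of the 7 genes was -0.49, against 0.01 over all genes. Against heterozygous livers, the mean log2 differences of tumours were -3.94 for Ces1e, -2.27 for Ces1f, -2.0 for Ces1c, -1.53 for the shared Ces3a and Ces3b probe set, -0.90 for Ces2a, -0.84 for Ces1d, -0.20 for Ces1g and 0.10 for Ces2e. Ces1c, Ces1e and Ces1f lay below every heterozygous liver in all 6 tumours, 3 of the 7 genes, in a comparison in which 6.13% of all genes did so, and the shared probe set did so as well. The comparisons share their samples, so that these differences are not independent of those between knockout and heterozygous livers.

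**Figure D2:**
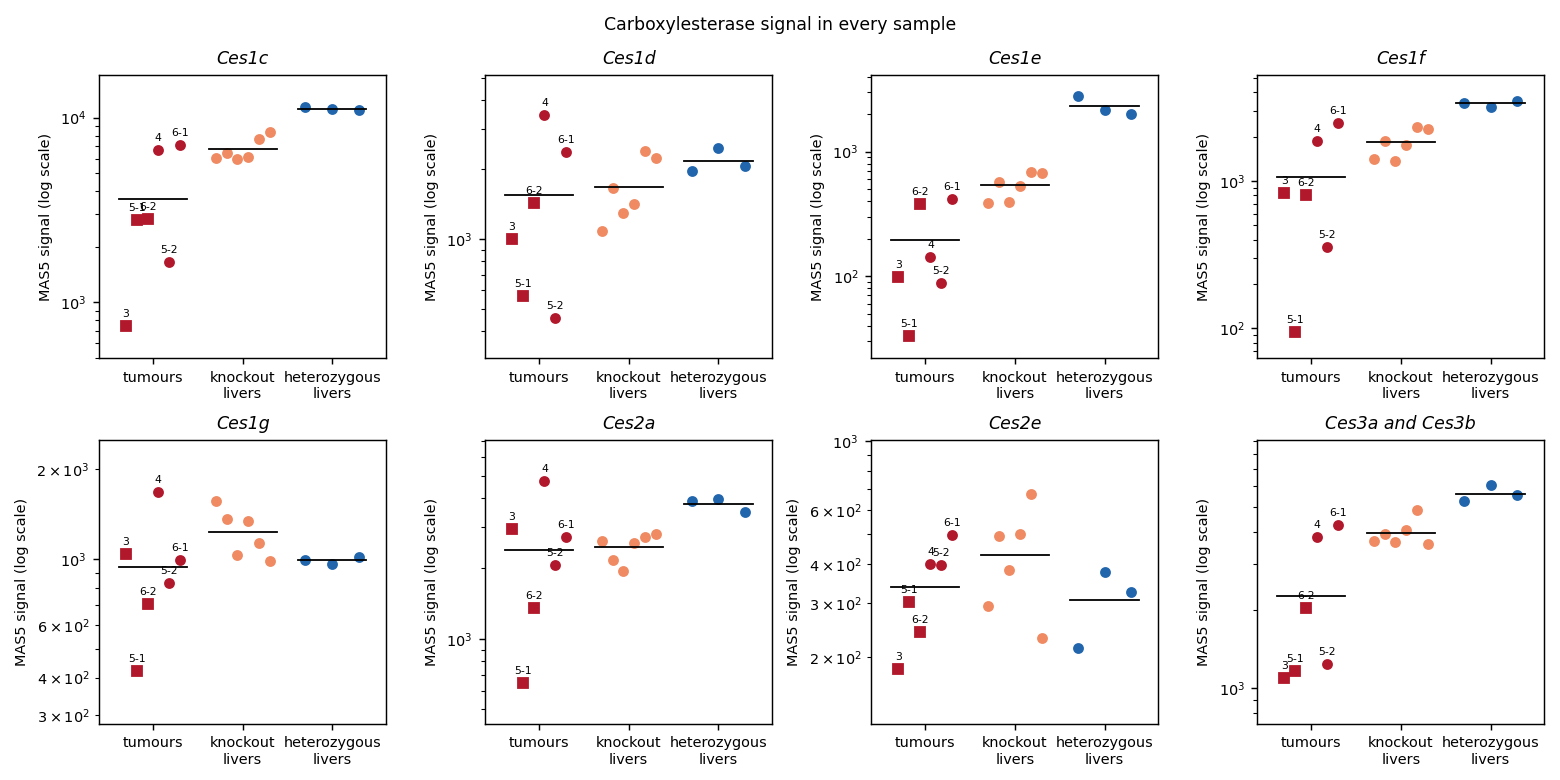
Signal of each carboxylesterase probe set in every sample (y axis, log scale), with tumours, knockout livers and heterozygous livers along the x axis. The tumours spread most for Ces1f, from 94.1 to 2451, while for Ces2e the knockout livers, at 230.4 to 674, spread about as widely as the tumours, at 183 to 496.

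Ces1e, egasyn, had signals of 97.8, 32.7 and 381 in tumours 3, 5-1 and 6-2, and of 142, 87.9 and 417 in tumours 4, 5-2 and 6-1. In tumour 5-1 it stood at 6.08% of the knockout liver mean and 1.42% of the heterozygous mean. That signal lies just above the signal minimum of 28.8, so these percentages are imprecise. Only tumour 6-1 reached into the range of the knockout livers. Ces1f had signals of 826, 94.1 and 802 in tumours 3, 5-1 and 6-2, and of 1874.5, 357 and 2451 in tumours 4, 5-2 and 6-1. It showed the widest spread, 26.1-fold between the highest and the lowest tumour, and tumour 6-1 exceeded every knockout liver. For Ces1c, the plasma esterase, signals were 743, 2802 and 2834 in tumours 3, 5-1 and 6-2, and 6649, 1649 and 7126 in tumours 4, 5-2 and 6-1. Tumours 4 and 6-1 lay within the range of the knockout livers and the other 4 lay below all of them.

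Ces1d had signals of 1002, 568.1 and 1427 in tumours 3, 5-1 and 6-2, and of 3437, 456 and 2377 in tumours 4, 5-2 and 6-1. With this brightest probe set, tumour 4 exceeded all knockout livers and tumour 5-2 was the lowest of all samples. With the second probe set, tumour 4, at 1325, lay under knockout liver 6, at 1384, and tumour 3 was the lowest sample, at 330. With the dimmest, tumour 4, at 169, lay within the knockout livers' range of 102 to 202, and tumour 5-2 was the lowest sample, at 62.0. For Ces1g the signals were 1039, 420.0 and 703 in tumours 3, 5-1 and 6-2, and 1674, 828 and 994 in tumours 4, 5-2 and 6-1, a narrower spread of 3.99-fold. Ces2a had signals of 2941, 650.1 and 1349 in tumours 3, 5-1 and 6-2, and of 4737.5, 2064 and 2727 in tumours 4, 5-2 and 6-1. Tumours 3 and 4 exceeded every knockout liver here, although tumour 3 had the least Ces1c of any sample.

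Ces2e had signals of 183, 301.5 and 242 in tumours 3, 5-1 and 6-2, and of 400.5, 397 and 496 in tumours 4, 5-2 and 6-1. The 2 sets of tumours did not overlap. The shared probe set of Ces3a and Ces3b had signals of 1089.5, 1157 and 2029 in tumours 3, 5-1 and 6-2, and of 3828, 1230.0 and 4233 in tumours 4, 5-2 and 6-1. Tumour 5-2 again sat among the low tumours.

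The tumours reported as low in the chromosome 8 stretch, 3, 5-1 and 6-2, thus did not form a separate class for these genes. Only Ces2e, 1 of 8 measured probe sets (the brightest for Ces1d), had all 3 below tumours 4, 5-2 and 6-1, an order that 3.66% of all genes showed. Ces2g, which is not a member and lies in the same cluster as Ces2e, had that order too, with 117, 58.9 and 140 in tumours 3, 5-1 and 6-2, and 191, 214 and 233.5 in tumours 4, 5-2 and 6-1. Tumour 5-1 was among the 3 lowest tumours in 8 of the 8 measures, tumour 5-2 in 7, tumour 3 in 5 and tumour 6-2 in 4. Tumours 4 and 6-1 were among them in 0, and the highest tumour was always 6-1 (5 measures) or 4 (3 measures). The median log2 difference to the knockout liver mean was -1.11 in tumour 3, -1.64 in tumour 5-1 and -0.82 in tumour 6-2. It was 0.03 in tumour 4, -1.74 in tumour 5-2 and 0.13 in tumour 6-1. Over all genes the same medians lay between -0.10 and 0.13.

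**Figure D3:**
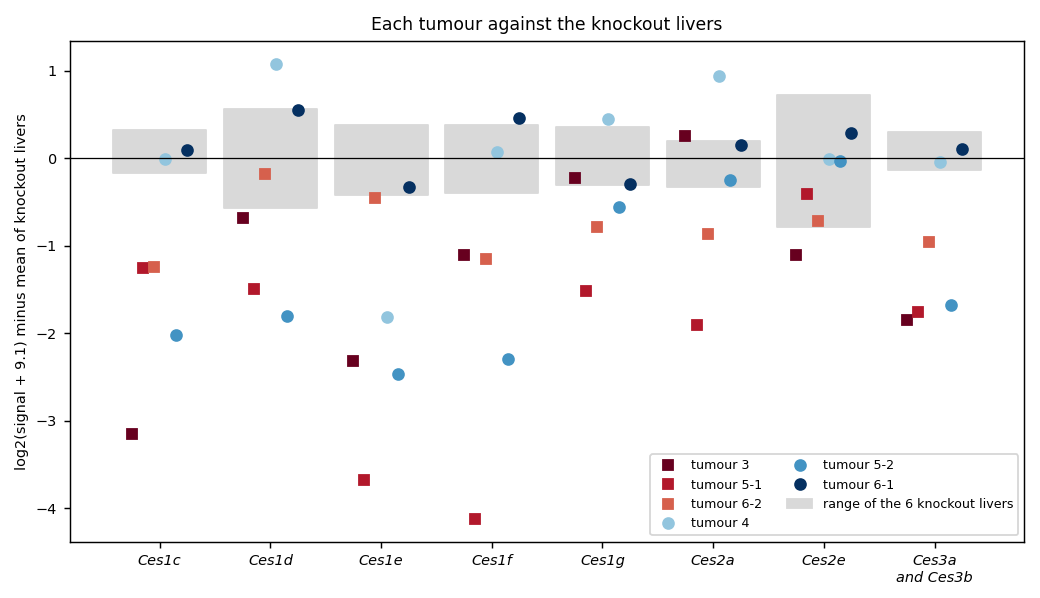
Difference of each tumour to the mean of the knockout livers, as log2(signal + 9.1) (y axis), by carboxylesterase (x axis). Squares are tumours 3, 5-1 and 6-2, circles are tumours 4, 5-2 and 6-1, and grey bands are the range of the 6 knockout livers. Tumour 5-2 sits with the low tumours in the Ces1 and Ces3 genes and near 0 for Ces2e, and only Ces2e has all squares below all circles.

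Counted against the range of the 6 knockout livers, 6 of the 8 measures were below all livers in tumour 3, 7 in tumour 5-1 and 6 in tumour 6-2. The count was 1 in tumour 4, 6 in tumour 5-2 and 0 in tumour 6-1. Over all genes, between 14.2% and 28.2% lay below all knockout livers in a given tumour, with the highest share in tumour 4 and the lowest in tumour 6-1. Against the liver of the same mouse, tumours 5-1 and 5-2 were each lower in 8 of 8 measures, with median log2 differences of -2.06 and -2.09. Tumour 6-2 was lower in 7 of 8 (median -0.81) and tumour 3 in 6 of 8 (median -0.87), whereas tumours 4 and 6-1 were lower in 3 of 8 each, with medians of 0.11 and 0.05. Between tumours of the same mouse, tumour 6-2 was below tumour 6-1 in all 8 measures (median -1.01), while tumour 5-1 was below tumour 5-2 in 6 of 8 (median -0.68) and above it for Ces1c and Ces1d.

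Hepatocyte markers and macrophage markers varied among these tumours as well. The summed hepatocyte signal was 75240, 72060 and 81450 in tumours 3, 5-1 and 6-2, and 91740, 73670 and 84860 in tumours 4, 5-2 and 6-1. Tumours 4 and 6-1, with the highest carboxylesterase signals, also had the highest sums. Macrophage sums were 3208, 5402 and 4928 in tumours 3, 5-1 and 6-2, and 942.8, 3423 and 3337 in tumours 4, 5-2 and 6-1. The actin ratio was 1.78, 1.51 and 1.76 in tumours 3, 5-1 and 6-2, and 2.06, 1.59 and 1.95 in tumours 4, 5-2 and 6-1. These values lay within or below the range of the knockout livers. Tumours 4 and 6-1 had the highest ratios as well, and tumours 5-1 and 5-2 the lowest. Their part in the differences among tumours was not tested.

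The genes around the clusters were compared with the members in each tumour, taking the nearest 10 tested genes on each side of a cluster, some of which lie megabases away. Around the Ces1 cluster, the median log2 difference of neighbours to knockout livers was -0.25, -0.18 and -0.54 in tumours 3, 5-1 and 6-2, and -0.28, 0.12 and 0.01 in tumours 4, 5-2 and 6-1. The 5 members of that cluster had medians of -1.10, -1.52 and -0.79 in tumours 3, 5-1 and 6-2, and of 0.07, -2.02 and 0.09 in tumours 4, 5-2 and 6-1. Tumour 5-2 had the lowest median of members and a median of neighbours slightly above 0. Its neighbours ranged from -2.22 for Cpne2 to 2.09 for Mt1. The lowest single member was Ces1f in tumour 5-1, at -4.12. Around the second cluster, neighbours had medians of -0.38, -0.22 and -0.52 in tumours 3, 5-1 and 6-2, and of -0.22, -0.08 and -0.11 in tumours 4, 5-2 and 6-1. Its 3 measured probe sets had medians of -1.11, -1.76 and -0.86 in tumours 3, 5-1 and 6-2, and of -0.01, -0.25 and 0.15 in tumours 4, 5-2 and 6-1. Of the 20 neighbours of the Ces1 cluster, 9, 4 and 8 lay below all knockout livers in tumours 3, 5-1 and 6-2, and 5, 3 and 5 in tumours 4, 5-2 and 6-1. Of the 20 around the second cluster, 10, 9 and 14 did so in tumours 3, 5-1 and 6-2, and 6, 5 and 3 in tumours 4, 5-2 and 6-1. Over all genes the share was 24.4%, 21.0% and 21.4% in tumours 3, 5-1 and 6-2, and 28.2%, 19.7% and 14.2% in tumours 4, 5-2 and 6-1. These are descriptions of tumours chosen on this chromosome, and no test was made.

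**Figure D4:**
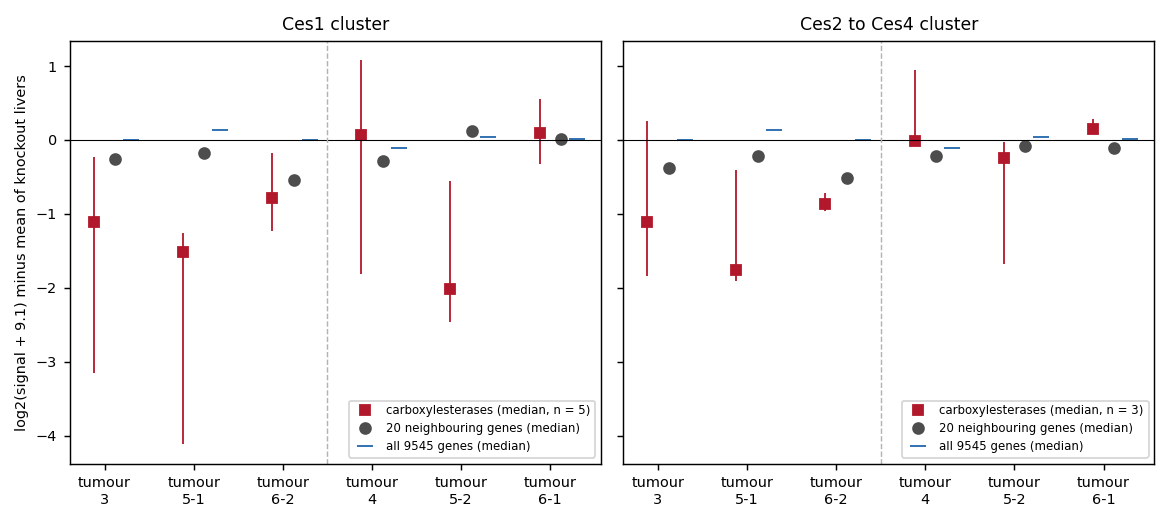
Median log2 difference to the knockout liver mean (y axis) for the carboxylesterases and for 20 neighbouring genes of each cluster in each tumour (x axis), with vertical lines for the range of the carboxylesterases and dashes for the median of all genes. In tumour 5-2 the Ces1 members lie at -2.02 while their neighbours lie at 0.12, and in tumours 4 and 6-1 the medians of members and neighbours lie between -0.28 and 0.15.

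Across the 15 samples the members varied together to different degrees. The highest Pearson correlation of log2 values was 0.94, between Ces1c and the shared Ces3a and Ces3b probe set, which lie in different clusters. Ces1f with that probe set reached 0.89 and Ces1e with Ces1f 0.86. Ces2e stood aside, with 0.06 against both Ces1e and Ces2a. The samples share mice and groups, and these values are a description. Among all other genes, those most like Ces1c over the 15 samples were Serpina1c (0.95), an alpha-1 antitrypsin, Gpt2 (0.92), a mitochondrial alanine transaminase, Rgn (0.90), the calcium-binding regucalcin, and Acaa2 (0.90), a thiolase of mitochondrial fatty acid oxidation. Those most like Ces2a were Slco1a4 (0.91), an organic anion transporter, Dgcr6 (0.90), Aldh4a1 (0.90), an enzyme of proline breakdown, and Cox4i1 (0.89), a subunit of cytochrome c oxidase. The probe set of Ces3a and Ces3b was most like Acaa2 (0.98), Rgn (0.97), Mcm10 (0.96), a replication factor, and Slco1a1 (0.93), an organic anion transporter. Only Gpt2 and Cox4i1 of these lie on chromosome 8.

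Other ester hydrolases and lipid genes were read as a list of 40, of which 34 were tested. In knockout livers 1 rose, 0 fell and 33 did not pass the test in limma with all arrays, with a median log2 change of -0.07. The 1 that rose was Lpl, the lipase of lipoprotein triacylglycerol, with 613 ± 338 in knockout livers (SD, n = 6) and 79.6 ± 7.41 in heterozygous livers (SD, n = 3), a log2 change of 2.58 ± 0.60 (SE; adjusted p = 0.0376). The call was lost with the larger constant, with the actin covariate, without knockout liver 1, 2, 3 or 4 and without any heterozygous liver. In tumours against knockout livers 0 of 34 were called, while 9 had an unadjusted p under 0.05, as did 985 of all 9545 genes, and the median log2 change was -0.13. Over all genes 0.115% were called lower and 0.0210% higher in that comparison.

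In tumours against heterozygous livers 4 of the 34 rose and 2 fell, with a median log2 change of -0.16, where 3.92% of all genes were called higher and 2.93% lower. Lpl rose by a log2 change of 3.20 ± 0.60 (SE; adjusted p = 0.00429). Pnpla3, a lipid droplet hydrolase, was called higher (adjusted p = 0.00777), with 104 ± 108 in tumours (SD, n = 6), against 8.27 ± 1.01 in heterozygous livers (SD, n = 3). Cidec, a lipid droplet protein, was called higher too (adjusted p = 0.0318), with 117 ± 149 in tumours (SD, n = 6), against 2.37 ± 1.94 in heterozygous livers (SD, n = 3). Both were under the signal minimum of 28.8 in heterozygous livers, so that the size of the change rests on the constant and no fold is given. They passed the filter only through tumours or knockout livers, which favoured a rise in advance, also in the count of 4. Without a filter both were still called, but the call of Cidec was lost with the larger constant. Pnpla2, the adipose triglyceride lipase, rose by 0.65 ± 0.19 on the log2 scale (adjusted p = 0.0475). Ephx2, the soluble epoxide hydrolase, fell by 0.92 on the log2 scale (adjusted p = 0.0336), with 2119 ± 641 in tumours and 3837 ± 172 in heterozygous livers (SD, n = 6 and 3). Lcat, which esterifies plasma cholesterol, averaged 1190 ± 466.3 in tumours and 2028 ± 181 in heterozygous livers (SD, n = 6 and 3), and fell by 0.85 on the log2 scale (adjusted p = 0.0475). All 6 calls were lost with the actin covariate. Without any 1 heterozygous liver only Lpl and Pnpla3 were called. The calls of Lcat and Pnpla2 were also lost without a filter, after quantile normalization, with arrays centred on medians and without any 1 knockout liver. That of Lcat was lost without a constant, and that of Ephx2 with arrays centred on medians. The call of Pnpla2 was lost with the larger constant and with each probe set by itself. Pnpla3 was not called with the stricter filter. With the groups alone, only Lpl was called.

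Of 11 transcription factors known to act on liver carboxylesterases or on hepatocyte genes at large, 10 were tested. In knockout livers against heterozygous livers 0 of the 10 were called with all arrays. Nr1h4, the bile acid receptor FXR, came closest, with 459 ± 17.0 in knockout livers and 667 ± 99.5 in heterozygous livers (SD, n = 6 and 3) and a log2 change of -0.52 ± 0.15 (SE; adjusted p = 0.0798). With the groups alone, Nr1h4, Nr1i3 (the receptor CAR) and Ppara (the fatty acid receptor PPAR-alpha) were called lower and Nfe2l2 (NRF2) higher, at log2 changes of -0.52, -0.82, -0.67 and 0.51, where 3.66% of all genes were called lower and 6.75% higher. In tumours against knockout livers 0 of the 10 were called. In tumours against heterozygous livers 3 of the 10 fell in limma with all arrays, where 2.93% of all genes were called lower. Nr1h4 fell by 0.74 on the log2 scale (adjusted p = 0.00599). Rxra, the shared partner of these receptors, fell by 0.67 (adjusted p = 0.036), and Cebpa, a hepatocyte factor, by 0.65 (adjusted p = 0.022). Over all genes, the lower calls of this comparison went from 280 to 6 with the actin covariate and to 33 with the groups alone. They went to 71 to 85 without any 1 heterozygous liver. The regulators were not followed through these settings.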

How the data were processed

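RNA of 15 mouse liver samples was hybridised to Affymetrix arrays. The deposited values are signals of intensity per probe set on a linear scale, made by the authors with MAS5, per the submitters' processing notes; its version and settings are not given in the sources used here. In the table, trimmed means were 150.1 on every array. Of 22690 probe sets, 64 were controls, 20393 had 1 gene in the platform annotation, 691 had several and 1606 were not listed.

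Signals were transformed as log2(signal + 9.1), the 20th percentile of all signals, so folds of dim genes are understated. Probe sets passed the filter with a signal over 28.8 (the 40th percentile) in 3 or more arrays, 16132 in all, 14810 of them with 1 gene. The probe set with the highest mean stood for its gene, which gave 9545 genes. All arrays were fitted with limma 3.58.1 (statmod 1.5.0, R 4.3.3), lmFit and eBayes with a trend, with the animal as a random block (consensus correlation -0.0176), and a gene was called where its p, adjusted by Benjamini-Hochberg over all genes, was under 0.05. Fits were tested on simulated data in which each gene had the same spread in all groups and the animal had no effect. That test does not cover the unequal spread of the groups seen here. The probe set shared by Ces3a and Ces3b was fitted among all probe sets past the filter, a choice made after the annotation was seen.

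Groups and animals came from the labels, which tie livers to tumours in 4 mice. After group means were removed, liver and tumour of the same mouse correlated between -0.156 and 0.0826, against -0.102 to 0.171 for other pairs, so the pairing rests on the labels. The animals of a group are separate by their labels, except the tumour pairs of 2 mice. The members, the gene lists and the tests were chosen with earlier results of these data known. Genes named are the members and the other carboxylesterases measured, called members of the lists (else the closest to the threshold, chosen after values were seen), and for the brightest member of each branch the 4 genes with the highest correlation. Sequences are from RefSeq (GRCm38.p6), whose table held 7 of the 10 members. Alternatives changed the constant, filter, normalization, probe set, block, RNA-quality covariate, groups in the fit and arrays left out.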

Additional observations from a re-analysis of the deposited data

How the results depend on the processing

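The calls in knockout livers against heterozygous livers depended on the spread the fit used. With all 15 arrays 160 genes and 1 carboxylesterase were called. With these groups alone 993 genes and 4 carboxylesterases were called, with the actin ratio as a covariate 21 and 0, and with 1 array left out 34 to 301 and 0 to 1. No carboxylesterase was called without a constant, without a filter, after quantile normalization or with arrays centred on medians, where the adjusted p of Ces1e in limma was 0.0616, 0.0585, 0.0647 and 0.0571. Ces1e stayed called with the larger constant, the stricter filter, each probe set by itself and no block. In the fit of these groups alone, added after its count was seen, 4 carboxylesterases were called with any 1 array left out and 2 with the actin covariate. Of the ester and lipid genes, 1 was called in knockout livers, against 2 without a constant, 0 with a larger constant, 0 with the actin covariate, 5 with the groups alone and 0 to 1 with an array left out.

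In tumours against knockout livers, 13 genes were called, against 4 without a constant, 0 with the actin covariate (741 at an unadjusted p under 0.05), 0 with the groups alone (880) and 0 to 61 with an array left out. The replicate block of 4 matched animals called 0 (732 at an unadjusted p under 0.05), and without any block 13 were called. In tumours against heterozygous livers, 654 genes were called, against 21 with the actin covariate, 117 with the groups alone and 216 to 785 with an array left out. Of the ester and lipid genes, 6 were called there, against 3 with arrays centred on medians, 0 with the actin covariate, 1 with the groups alone and 2 to 9 with an array left out. A fixed block could not be fitted for comparisons with heterozygous livers, which share no animal.

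Directions turned mainly with the actin covariate, which largely follows the groups. In knockout livers against heterozygous livers, the log2 change of Ces1d turned to 0.58, of Ces1f to 0.43 and of Ces2a to 0.058. In tumours against heterozygous livers, Ces1d turned to 0.58, Ces1g to 0.11, Ces2a to 0.051 and Ces2e to -0.49. With 1 array left out, the difference of tumours to knockout livers was -0.52 to 0.048 for Ces2a. The difference of tumours to heterozygous livers was -0.39 to 0.016 for Ces1g and -0.13 to 0.26 for Ces2e. The turns came without tumour 5-1 for Ces2a and Ces1g, and without tumour 6-1 or heterozygous liver 1 for Ces2e. The cause was not tested. Signals near background, as of Ces4a or of Ces1e in tumour 5-1, limit what folds can show.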
